A study of Mus musculus with 10 samples.

Results

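The small nucleolar RNA (snoRNA) genes are 53 probe sets, for 51 genes, among the 34760 probe sets of a mouse gene array. They were chosen by name alone: a probe set counted if its only gene symbol began with Snord or Snora and a digit, so the rule uses no measured value, although the set was picked for study with earlier results of these data known. The set holds 31 C/D box genes (Snord) and 20 H/ACA genes (Snora). Snora3 and Snora21 have 2 probe sets each, of which the 1 with the higher mean over all arrays was used.

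RNA came from CD4 CD8 double-positive (DP) thymocytes, the stage at which developing T cells carry both coreceptors, sorted from 8-week-old mice. There were 10 arrays, which the labels call biological replicates and which are read here as 1 mouse each. Every mouse carried Cd4-cre, a recombinase that cuts floxed genes in cells in which the Cd4 promoter is active, so deletion is limited to those cells and their progeny. The control mice (WT, n = 3) carried Cd4-cre alone. The E2AKO mice (n = 2) were E2Aflox/flox, the HEBKO mice (n = 2) were HEBflox/flox, and the DKO mice (n = 3) were floxed for both genes. E2A (gene Tcf3) and HEB (gene Tcf12) are E proteins, transcription factors that bind DNA at E boxes. Total RNA was labelled, and per the labels the sorted cells were over 98% pure. The deposited values are intensities normalised between arrays and are given here as log2. Levels of different probe sets are not comparable with each other, so only changes are compared between genes.

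Small nucleolar RNAs guide chemical marks on other RNAs, mainly ribosomal RNA. C/D box snoRNAs place 2'-O-methyl groups through the enzyme fibrillarin (Fbl), and H/ACA snoRNAs direct pseudouridine formation through dyskerin (Dkc1). A few, such as those of Snord118, Snord14e, Snord22 and Snora73a, belong to families that act in cutting the ribosomal RNA precursor. In mammals most are processed from introns of a host gene, so that a host transcript gives rise to both the spliced host RNA and the snoRNA. Many hosts encode ribosomal proteins or other parts of the translation machinery.

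By position in the RefSeq gene table (GRCm38.p6), 50 of the 51 genes lay within the span of another gene and Snord118 did not. The 50 shared 40 hosts, 30 of them protein-coding and 10 noncoding. Ribosomal protein genes made up 16 hosts and held 21 snoRNA genes. Whether a probe set reads the mature snoRNA, the unspliced host transcript or both is not given in the sources used here.

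A snoRNA processed from an intron is transcribed from the promoter of its host. Promoters of hosts whose snoRNAs rose in DKO cells are therefore shown here. The hosts were assigned by span without matching strand. RefSeq entries were at hand for 7 of the 10 hosts of snoRNA genes called in any comparison with WT. Each runs from 250 bases before the annotated start to 50 bases after it, 300 bases in all, on the strand of the gene. The entries of 4 hosts are printed, chosen after their motifs were seen. Capitals mark every CANNTG, the general E box, which reads the same on both strands. Gas5 has 2 annotated starts.
Snhg12, host of Snora16a and Snora44, GRCm38.p6 chr4:132308428-132308727, plus strand: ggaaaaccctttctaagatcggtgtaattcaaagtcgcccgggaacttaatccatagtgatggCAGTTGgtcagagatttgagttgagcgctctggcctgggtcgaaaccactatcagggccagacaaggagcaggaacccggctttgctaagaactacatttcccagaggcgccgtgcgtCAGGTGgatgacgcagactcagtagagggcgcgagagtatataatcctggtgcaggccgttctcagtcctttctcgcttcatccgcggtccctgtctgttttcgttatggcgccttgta
Gas5, host of Snord47, first start, GRCm38.p6 chr1:161034351-161034650, plus strand: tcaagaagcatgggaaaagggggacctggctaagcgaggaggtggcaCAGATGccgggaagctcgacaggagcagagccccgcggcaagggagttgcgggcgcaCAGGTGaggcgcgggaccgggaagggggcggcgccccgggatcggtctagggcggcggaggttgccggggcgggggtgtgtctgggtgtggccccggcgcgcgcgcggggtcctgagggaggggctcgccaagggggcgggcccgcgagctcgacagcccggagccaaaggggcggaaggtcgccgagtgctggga
Gas5, second start, GRCm38.p6 chr1:161034916-161035215, plus strand: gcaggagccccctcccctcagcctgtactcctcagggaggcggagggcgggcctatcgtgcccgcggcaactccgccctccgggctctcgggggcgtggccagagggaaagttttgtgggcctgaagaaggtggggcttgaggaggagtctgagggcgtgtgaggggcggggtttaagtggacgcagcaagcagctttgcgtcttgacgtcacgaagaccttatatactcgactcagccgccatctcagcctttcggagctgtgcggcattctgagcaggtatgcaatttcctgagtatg
Rpl13a, host of Snord35a and Snord33, GRCm38.p6 chr7:45128696-45128995, minus strand: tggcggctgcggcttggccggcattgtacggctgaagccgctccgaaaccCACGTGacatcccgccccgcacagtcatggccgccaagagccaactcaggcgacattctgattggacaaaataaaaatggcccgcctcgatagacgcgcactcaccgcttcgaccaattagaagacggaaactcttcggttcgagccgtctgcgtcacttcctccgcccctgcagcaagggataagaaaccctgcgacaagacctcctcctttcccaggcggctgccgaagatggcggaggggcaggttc
Wdr43, host of Snord53, GRCm38.p6 chr17:71615965-71616264, plus strand: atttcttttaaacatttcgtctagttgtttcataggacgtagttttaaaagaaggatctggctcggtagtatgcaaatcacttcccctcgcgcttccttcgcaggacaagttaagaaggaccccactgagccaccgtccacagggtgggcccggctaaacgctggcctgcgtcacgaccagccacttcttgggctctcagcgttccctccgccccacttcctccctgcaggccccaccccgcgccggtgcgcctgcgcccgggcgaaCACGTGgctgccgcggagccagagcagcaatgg

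CANNTG was found in 19 of the 32 host promoter entries (59.4%), against 72.3% of the 32851 entries in the RefSeq table. CAGGTG or its complement CACCTG, a subset of CANNTG, was in 3 host entries (9.38%, against 20.2%), namely those of Gas5, Rpl39 and Snhg12. CAGCTG, another subset, was in 2 (6.25%, against 16.3%). CACGTG, also a subset and the letters that Myc family factors recognise, was in 6 (18.8%, against 7.15%), among them Rpl13a and Wdr43. A start of C followed by 4 pyrimidines (C or T), as in the 5' ends of many ribosomal protein transcripts, was in 6 entries (18.8%, against 2.51%). These matches describe the letters in the window only. Of the other hosts of called snoRNAs, Rpl4 had a CANNTG, and 2410006H16Rik and Rps3a1 had none in this window.

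Median intensities per array lay between 92.6 and 98.6. Genes entered the test where at least 2 arrays read them at or above that array's 40th percentile, and 13138 of 19937 named genes did. Tcf3 was lower in DKO than in WT by a log2 difference of -0.66 ± 0.11 (SE; limma adjusted p = 0.00256) and Tcf12 by -1.13 ± 0.10 (adjusted p = 3.07e-05). In the single knockouts neither target passed: Tcf3 had -0.54 ± 0.13 in E2AKO (adjusted p = 0.998) and Tcf12 had -0.52 ± 0.12 in HEBKO (adjusted p = 0.0657), while Tcf3 had 0.33 in HEBKO and Tcf12 had 0.10 in E2AKO, neither passing. Tcf3 read 9.65, 9.85 and 9.63 in WT and 9.23 and 9.12 in E2AKO, and Tcf12 read 11.91, 11.74 and 11.86 in WT and 11.15 and 11.48 in HEBKO, so both E2AKO and both HEBKO arrays were below all WT arrays for the deleted gene. Where the probes lie relative to the floxed exons is not given in the sources used here. Of the DP markers fixed as a check, Cd4 and Rag1 had log2 intensities of 12.19 and above in all WT arrays. Arrays are named here by group and by the replicate number in the labels. DKO 3 stood apart for snoRNA: it was the highest of all 10 for 14 of 27 C/D box and 16 of 20 H/ACA genes, against 15.6% of all genes tested. WT 2 was the lowest for 10 of 27 C/D box genes, against 6.87% of all genes. Call counts in DKO against WT are also given without these arrays, while sign counts and overlaps between groups are not. Comparisons with WT share the same 3 WT arrays and are therefore not independent.

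Of the 51 genes, 47 were tested: 27 of 31 C/D box and all 20 H/ACA. Snord38a, Snord52 and Snord58b were below the 40th percentile in every array, and Snord118 reached it in 1. Of those tested, 45 were at or above it in all arrays. Snora41 was below it in all 3 WT arrays and Snord37 was below it in 1 HEBKO array. Levels of snoRNA genes were spread widely between WT mice: the median SD over the WT arrays was 0.29 for C/D box genes and 0.21 for H/ACA genes, against 0.14 for all genes. The widest among the snoRNA genes was 0.58, for Snord82.

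In cells without both E2A and HEB, some snoRNA genes had higher signals than in WT and most did not pass the test. In DKO cells 9 of the 47 tested snoRNA genes rose and none fell (19.1%; limma, adjusted p under 0.05 over all genes). Over all genes tested, 8.18% were called higher and 5.41% lower. The rises were in 8 of 27 C/D box genes (29.6%) and 1 of 20 H/ACA genes (5.0%). With arrays weighted by their quality in the fit, 18 were called in either direction, 6 of them H/ACA. In that fit 27.8% of all genes were called in either direction. The split between the classes therefore depends on the fit. In the main fit the 9 rises ran from a log2 difference of 0.58 for Snord53 to 1.39 for Snora16a. An unadjusted p under 0.05 was found for 19 of 47, and for 3378 of all 13138 genes.

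Snord87, a C/D box gene within the noncoding host Snhg6, gave the smallest p. Its log2 intensities were 7.08, 7.24 and 7.34 in WT and 8.42, 8.31 and 8.72 in DKO, with 7.92 and 7.66 in HEBKO and 7.60 and 7.60 in E2AKO. All 3 groups that lack an E protein lay above all WT arrays, and the DKO arrays lay above every other array. The DKO difference from WT was 1.27 ± 0.12 (SE; adjusted p = 4.43e-05), a 2.4-fold rise.

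Snora16a, 1 of 2 H/ACA genes within the noncoding host Snhg12, had the largest rise. It read 8.48, 8.34 and 8.25 in WT and 8.97, 9.92 and 10.35 in DKO, with 8.63 and 9.11 in HEBKO and 8.37 and 9.23 in E2AKO. The DKO arrays were all above the WT arrays but spread widely, with an SD of 0.71, the widest of the H/ACA genes. The difference was 1.39 ± 0.30 (adjusted p = 0.0106).

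Snord47 lies in Gas5, a noncoding host that carries several C/D box snoRNAs. It read 9.33, 8.55 and 9.14 in WT and 10.26, 9.96 and 10.33 in DKO, with 9.72 and 9.42 in HEBKO and 9.69 and 9.73 in E2AKO. Every array of each mutant group was above every WT array. The DKO difference was 1.17 ± 0.18 (adjusted p = 0.00108).

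Snord49b, in the noncoding host 2410006H16Rik, read 10.71, 10.37 and 10.28 in WT and 11.25, 11.73 and 11.75 in DKO, with 10.78 and 11.13 in HEBKO and 10.39 and 10.997 in E2AKO. The DKO arrays were above all others, and the difference from WT was 1.13 ± 0.19 (adjusted p = 0.002).

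Snord35a, a C/D box gene in Rpl13a, read 9.75, 9.85 and 8.96 in WT and 10.47, 10.50 and 10.54 in DKO, with 10.03 and 10.42 in HEBKO and 9.56 and 9.49 in E2AKO. The E2AKO arrays lay inside the WT range, the HEBKO arrays above it and the DKO arrays above both. The DKO difference was 0.98 ± 0.19 (adjusted p = 0.0059).

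Snord73a lies in Rps3a1, which encodes a protein of the small ribosomal subunit. It read 7.88, 7.98 and 7.63 in WT and 8.70, 8.42 and 9.06 in DKO, with 8.35 and 7.83 in HEBKO and 8.10 and 8.46 in E2AKO, a difference of 0.90 ± 0.18 (adjusted p = 0.00666). The DKO arrays did not overlap the WT arrays, but the lowest of them was below the higher E2AKO array.

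The other 3 calls were smaller and less stable. Snord42b, in the ribosomal protein gene Rpl23a, read 7.78, 8.40 and 7.98 in WT and 8.60, 8.73 and 9.08 in DKO (0.75 ± 0.19, adjusted p = 0.0218). Snord16a, in the ribosomal protein gene Rpl4, read 10.30, 9.87 and 10.24 in WT and 10.49, 10.77 and 11.26 in DKO (0.70 ± 0.21, adjusted p = 0.0423). Snord53, in Wdr43, which encodes a factor of small-subunit assembly, read 7.03, 7.62 and 7.51 in WT and 7.95, 7.89 and 8.08 in DKO (0.58 ± 0.14, adjusted p = 0.0153). In all 3 the groups did not overlap. The Snord42b call was lost without WT 1, WT 3, DKO 2 or DKO 3. The Snord16a call was lost without any 1 of the 3 WT arrays, either HEBKO array, DKO 2 or DKO 3, and after a renewed quantile normalisation. The Snord53 call was lost without DKO 3. The 6 larger calls held in all 19 alternative analyses, including every one that left out an array.

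**Figure D1:**
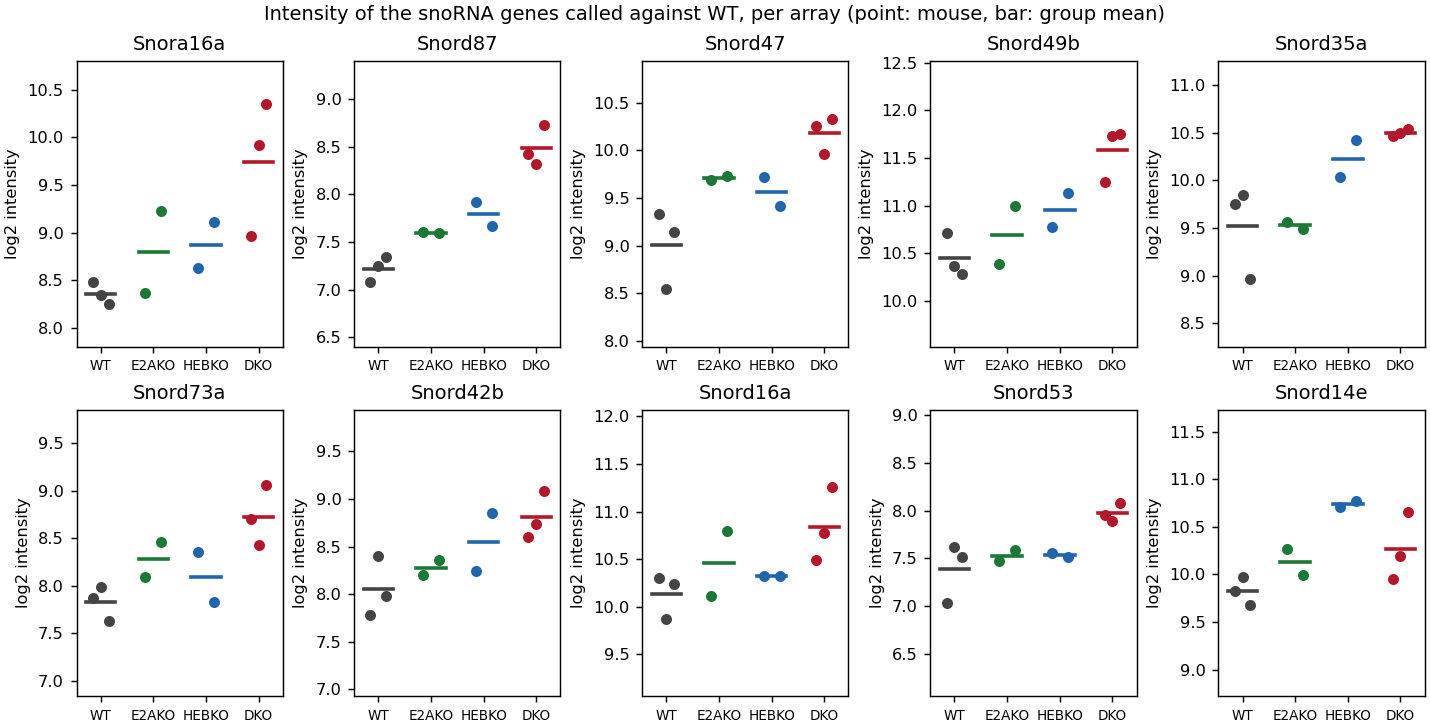
Log2 intensity of the snoRNA genes called in a comparison with WT, by group. Each point is 1 array, read as 1 mouse, and the short lines are group means. The 3 DKO arrays of Snord87, at 8.31 to 8.72, lie above all other arrays, and Snord14e is highest in the 2 HEBKO arrays.

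The 38 snoRNA genes that did not pass in DKO had differences of -0.24 to 0.75. Among the larger were 0.75 for Snora69 (in Rpl39; adjusted p = 0.117), 0.66 for Snord73b (in Rps3a1; 0.106), 0.65 for Snord82 (in Ncl, which encodes nucleolin; 0.183), 0.60 for Snora21 (in Rpl23; 0.1) and 0.47 for Snora33 (in Rps12; 0.0903). Their DKO arrays overlapped the WT arrays except in Snora33. The second probe set of Snora21 averaged 6.95 in WT and 7.04 in DKO. The lowest differences were -0.24 for Snora3 (in Rpl27a), -0.15 for Snord37 (in Eef2), -0.10 for Snord42a (in Rpl23a), -0.06 for Snora74a (in Snhg4) and -0.03 for Snord57 (in Nop56). The 95% intervals of these 5 all included 0. The second probe set of Snora3 went the other way, from 8.87 in WT to 9.13 in DKO, so the 2 probe sets of this gene disagree in sign.

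Differences above 0 were found in both classes, also among genes that did not pass. The difference was above 0 in 21 of 27 C/D box genes and 18 of 20 H/ACA genes, against 49.0% of all genes. The median log2 difference was 0.35 for C/D box genes and 0.25 for H/ACA genes, against -0.01 for all genes. Every DKO array was above every WT array in 8 C/D box and 6 H/ACA genes, where 16.7% of all genes did so, and every DKO array was below in none, against 13.4%. Snora41, 1 of the 6, was below the 40th percentile in all WT arrays and was tested only because of its mutant arrays, so its direction was fixed by the filter, and the H/ACA count and median include it. Whether the 2 classes differ was not tested, since the genes of a class share arrays and hosts.

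**Figure D2:**
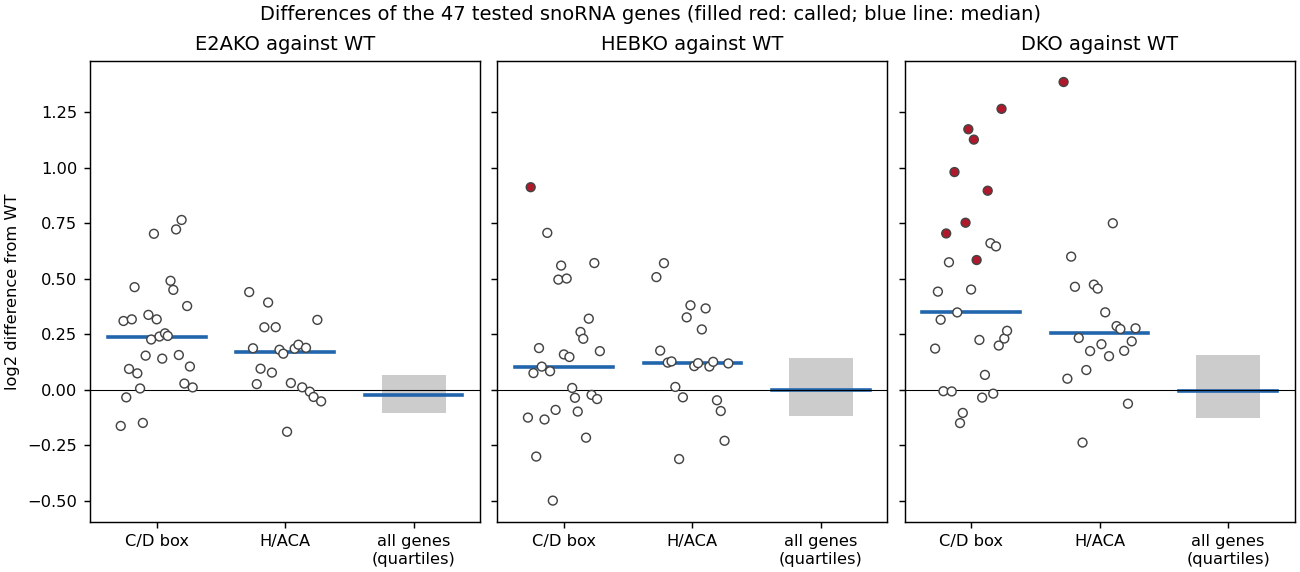
Log2 difference from WT of each tested snoRNA gene in E2AKO, HEBKO and DKO, split into C/D box (27) and H/ACA (20) genes; filled points passed the test and lines are medians. In DKO the medians are 0.35 and 0.25, and all 9 filled points are above 0.

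The per-array medians show how far single arrays carry this. Measured from the WT mean of each gene, the C/D box median was 0.10, -0.10 and 0.05 in WT and 0.36, 0.35 and 0.44 in DKO, with 0.17 and 0.03 in HEBKO and 0.12 and 0.22 in E2AKO. All 3 DKO arrays were above the others. The H/ACA median was -0.06, 0.09 and -0.01 in WT and 0.13, 0.26 and 0.45 in DKO, with -0.03 and 0.27 in HEBKO and 0.07 and 0.19 in E2AKO. Here DKO 1 lay below 1 E2AKO and 1 HEBKO array, so the groups overlapped. Without DKO 3, 6 snoRNA genes were called (5 C/D box, 1 H/ACA), all 6 among the original 9, with 7.92% of all genes called, and the medians were 0.26 and 0.17. Without WT 2, 10 were called (7 and 3), 8 of them among the original 9, with 14.6% of all genes called. Without DKO 1, 11 were called, 2 of them H/ACA, with 10.7% of all genes called, and the H/ACA median was 0.35.

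**Figure D3:**
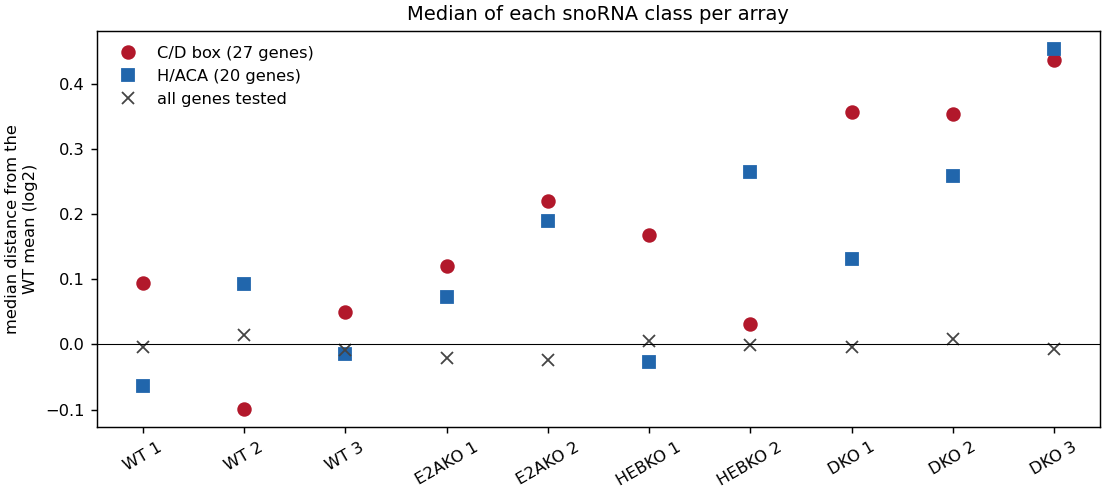
Median over tested C/D box and H/ACA genes of the log2 difference from the WT mean, for each of the 10 arrays. The C/D box medians of the DKO arrays are 0.36, 0.35 and 0.44, above all other arrays, while the H/ACA medians of DKO run from 0.13 to 0.45 and overlap those of HEBKO and E2AKO.

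Loss of HEB alone gave 1 call. Snord14e, which lies in the chaperone gene Hspa8 and is of the U14 family that acts in making 18S ribosomal RNA, rose in HEBKO cells (1 of 47, or 2.13%; over all genes 0.274% were called higher and 0.632% lower). It read 9.82, 9.97 and 9.68 in WT, 10.70 and 10.77 in HEBKO, 10.27 and 9.9997 in E2AKO, and 9.95, 10.20 and 10.65 in DKO. The HEBKO arrays were the highest of all, and the DKO arrays overlapped WT. The HEBKO difference was 0.91 ± 0.18 (adjusted p = 0.0397), against 0.44 ± 0.16 in DKO (adjusted p = 0.0933) and 0.31 ± 0.18 in E2AKO (adjusted p = 0.998). The log2 difference of DKO from HEBKO was -0.47 (95% interval -0.86 to -0.08), which did not pass (adjusted p = 0.209). The Snord14e call was lost without WT 1, WT 3, either E2AKO array, either HEBKO array or DKO 2. The call was also lost in a fit that took the replicate number as a block. The host of Snord14e, Hspa8, had a difference of 0.44 in HEBKO (adjusted p = 0.424).

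In HEBKO the median differences were 0.10 for C/D box genes (17 of 27 above 0) and 0.12 for H/ACA genes (15 of 20), against -0.003 for all genes, of which 49.4% were above 0. After Snord14e the largest C/D box differences were 0.71 for Snord35a (adjusted p = 0.141) and 0.57 for Snord87 (0.084). The 3 largest H/ACA differences were 0.57 for Snora21 (0.27), 0.51 for Snora16a and 0.38 for Snora41 (in Eef1b2), the last against WT arrays that were all below the 40th percentile. The second probe set of Snora21 went the other way, from 6.95 in WT to 6.87 in HEBKO. The 3 lowest C/D box differences were -0.50 for Snord37, -0.30 for Snord15b (in Rps3) and -0.22 for Snord8 (in Gm26590). The 3 lowest H/ACA differences were -0.31 for Snora30 (in Srcap), -0.23 for Snora75 (in Ncl) and -0.10 for Snora74a, and none of these passed. Both HEBKO arrays were above all WT arrays in 6 C/D box and 4 H/ACA genes (Snora41 among the 4), where 16.5% of all genes did so, and below in 1 of each class, against 14.0%. The H/ACA median turned from 0.27 without HEBKO 1 to -0.03 without HEBKO 2, so its sign rests on HEBKO 2. A gap between these replicate numbers was not limited to HEBKO. The median H/ACA gene was higher in replicate 2 than in replicate 1 by 0.27 for HEBKO. For DKO and WT this offset was 0.13, and for E2AKO 0.14, while over all genes tested it was at most 0.02. C/D box offsets had no common sign (-0.15 for WT, -0.11 for DKO, -0.04 for HEBKO, 0.11 for E2AKO). The cause was not tested.

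Loss of E2A alone gave no call among snoRNA genes or among all 13138 genes (0.0%; limma, smallest adjusted p 0.998). Of the snoRNA genes 5, all C/D box, had an unadjusted p under 0.05, as did 418 of all genes. The median differences were 0.24 for C/D box genes (24 of 27 above 0) and 0.17 for H/ACA genes (16 of 20), against -0.02 for all genes, of which 43.5% were above 0. Both E2AKO arrays were above all WT arrays in 6 C/D box and 3 H/ACA genes, where 5.82% of all genes did so, and below in none, against 10.6%. The 3 largest C/D box differences were 0.77 for Snord82, 0.72 for Snord73b and 0.70 for Snord47, and the 3 largest H/ACA differences were 0.44 for Snora16a, 0.39 for Snora3 and 0.32 for Snora75. Snord82 read 10.85, 9.70 and 10.09 in WT and 11.17 and 10.78 in E2AKO, so the groups overlapped. Snord73b read 10.42, 9.53 and 10.44 in WT and 10.63 and 11.08 in E2AKO, which did not. The 3 lowest C/D box differences were -0.16 for Snord104 (in Gm36220), -0.15 for Snord35b and -0.03 for Snord15a, and the 3 lowest H/ACA differences were -0.19 for Snora44, -0.05 for Snora7a (in Rpl32) and -0.03 for Snora74a. Without E2AKO 2 the medians were 0.12 and 0.07.

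The differences between the mutants were tested directly. Against E2AKO, 3 snoRNA genes were higher in DKO (6.38% of 47, against 5.1% of all genes): Snord35a by 0.97, Snord87 by 0.89 and Snord49b by 0.89. None was lower, against 3.97% of all genes. Over all genes 9.07% were called in either direction. The Snord35a call was lost without either E2AKO array, and the Snord49b call without E2AKO 1. Each of these fits leaves 1 E2AKO array. The Snord49b call was also lost without DKO 2 or DKO 3. Leaving out DKO 1 gave 5 calls (7.37% of all genes). Against HEBKO, Snord87 alone was higher in DKO (0.69 ± 0.14, adjusted p = 0.0165; 2.13% of 47, against 2.15% of all genes). Over all genes 1.48% were called lower and 3.63% in either direction. The Snord87 call was lost without HEBKO 2 or DKO 3. Without DKO 3 the 1 call was Snord14e, downward (1.75% of all genes called). Without WT 1, WT 2 or DKO 1 there were 2 calls (3.8%, 3.68% and 2.53% of all genes). Between HEBKO and E2AKO no snoRNA gene passed (limma, smallest adjusted p 0.147), while 8 had an unadjusted p under 0.05. Over all genes 0.00761% were called higher and 0.0304% lower, 0.0381% together.

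The interaction asks whether the DKO change departs from the sum of the E2AKO and HEBKO changes. No snoRNA gene passed (limma, smallest adjusted p 0.303), while 2 had an unadjusted p under 0.05. Over all genes 0.632% were called. The largest departure was for Snord14e, at -0.78 ± 0.25, and the next by p was Snora3, at -0.64 ± 0.27. For the genes called in DKO the differences in E2AKO, HEBKO and DKO stand side by side as follows. Snord87 had 0.38, 0.57 and 1.27. Snord47 had 0.70, 0.56 and 1.17. Snord35a had 0.01, 0.71 and 0.98, and Snora16a had 0.44, 0.51 and 1.39. Snord73a had 0.45, 0.26 and 0.90, and Snord49b had 0.24, 0.50 and 1.13. Snord42b had 0.23, 0.50 and 0.75, Snord16a had 0.32, 0.19 and 0.70, and Snord53 had 0.14, 0.15 and 0.58.

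Hosts were compared with their snoRNA genes where both were measured, in 27 pairs with 23 hosts. The other 20 tested snoRNA genes had no measured host. Among them were Snord87, Snora16a, Snord49b and Snord35a, which were called in DKO, so the pairs do not cover these calls. In DKO 11 of the 23 hosts rose, none fell and 12 did not pass, with a median difference of 0.46, against 8.18% of all genes called higher and 5.41% lower. Of the 10 ribosomal protein hosts measured, 8 rose, against the same 8.18%, with differences over all 10 of 0.28 to 0.88. None of the 23 passed in HEBKO (median 0.28) or in E2AKO (median 0.05). In 4 pairs both the snoRNA gene and the host were called, in 10 the host alone, in 1 the snoRNA gene alone (Snord16a, whose host Rpl4 had 0.28, adjusted p = 0.0627), and in 12 neither.

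The 4 pairs called together were Snord47 with Gas5, Snord73a with Rps3a1, Snord42b with Rpl23a, and Snord53 with Wdr43. Gas5 rose by 0.53 ± 0.10 (adjusted p = 0.00478), from 11.87, 11.69 and 11.61 in WT to 12.29, 12.19 and 12.27 in DKO. Rps3a1 rose by 0.74, Rpl23a by 0.50 and Wdr43 by 0.54. For Snord53 the rise of 0.58 differed from that of its host Wdr43 by 0.04 ± 0.09.

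In 4 of the 27 pairs the snoRNA-to-host ratio of the DKO arrays did not overlap that of the WT arrays. Snord47 rose by 0.64 ± 0.23 more than Gas5. The other 3 went the opposite way, with the host above its snoRNA gene: Snora70 changed by 0.59 less than Rpl10, Snord42a by 0.61 less than Rpl23a, and Snora62 by 0.56 less than Rpsa. Each had an exact two-sided permutation p of 0.1, the smallest that 3 against 3 arrays can give, and 0.623 after Benjamini-Hochberg adjustment over the 27 pairs. Over all pairs the snoRNA change was above the host change in 12 and below it in 15. The changes had a Pearson r of 0.374 and a Spearman rho of 0.404 over the 27 pairs, given as a description only, since pairs share arrays and some share a host.

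**Figure D4:**
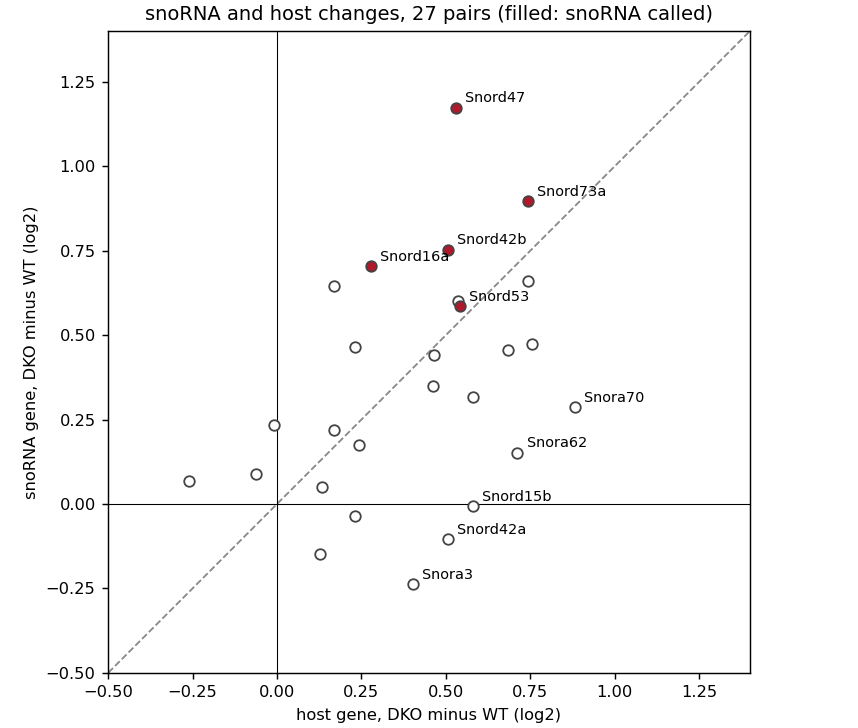
Log2 difference between DKO and WT of each snoRNA gene (vertical) against that of its host (horizontal) for the 27 measured pairs; the diagonal marks equal change. Points above the diagonal number 12 and points below it 15, with Snord47 above its host Gas5 by 0.64.

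SnoRNA genes of 1 host did not always move together. Snora16a and Snora44 both lie in Snhg12, and in DKO Snora16a rose by 1.39 while Snora44 had 0.21 (difference 1.18 ± 0.31). Snora44 read 6.83, 6.996 and 7.26 in WT and 6.93, 7.29 and 7.48 in DKO, with overlap. Snord35a and Snord33 both lie in Rpl13a, with 0.98 and -0.01 (difference 0.99 ± 0.31). Snord33 read 13.13, 12.91 and 13.06 in WT and 13.07, 13.00 and 13.01 in DKO, so it stayed within the WT range. In both cases the ratio of the 2 snoRNA genes did not overlap between groups (exact two-sided permutation p = 0.1, the smallest possible; 0.45 adjusted over 9 such pairs). In Rpl23a, Snord42b rose by 0.75 and Snord42a had -0.10 (exact permutation p = 0.2). In 2410006H16Rik, Snord49b rose by 1.13 and Snord49a had 0.45. In Rps3a1, Snord73a rose by 0.90 and Snord73b had 0.66.

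The proteins that form snoRNA particles were a list of 4 for each class. In DKO, where 8.18% of all genes were called higher, 5 of 8 rose, 2 of 4 C/D and 3 of 4 H/ACA, with list medians of 0.43 and 0.54 against -0.01 for all genes. Nop10, a small subunit of H/ACA particles, rose by 0.90 ± 0.13 (adjusted p = 0.000903). It read 7.75, 8.29 and 7.80 in WT and 8.87, 8.85 and 8.83 in DKO, with 8.95 and 8.88 in HEBKO and 8.22 and 7.99 in E2AKO. The HEBKO and DKO arrays lay above all WT and E2AKO arrays. The other H/ACA subunits that rose were Nhp2 (0.62, adjusted p = 0.0137) and Gar1 (0.45, adjusted p = 0.0108), and Dkc1, the enzyme, had 0.30 (adjusted p = 0.254). Of the C/D proteins, Nop58 (0.60, adjusted p = 0.0232) and the methyltransferase Fbl (0.49, adjusted p = 0.0265) rose. Snu13, which binds the box C/D fold, had 0.38 (adjusted p = 0.063) and Nop56 had 0.23 (adjusted p = 0.305).

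In HEBKO, Nop10 rose by 0.97 ± 0.15 (adjusted p = 0.0193), and the other 7 had differences of 0.26 (Nop56) to 0.67 (Nop58) that did not pass. In E2AKO none of the 8 passed, with differences of -0.14 to 0.17. Between HEBKO and E2AKO none passed either (Nop10 0.81, adjusted p = 0.0776). The Nop10 call in DKO held in all 19 alternatives, and that in HEBKO was lost without WT 1, WT 3 or either HEBKO array, and when only the 2 groups were fitted. In DKO the Fbl call was lost without WT 1, WT 3, DKO 1 or DKO 3, that of Nop58 without WT 1, WT 3, DKO 2 or DKO 3, and that of Nhp2 without WT 1, WT 3 or DKO 3. That of Gar1 was lost without WT 3.

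**Figure D5:**
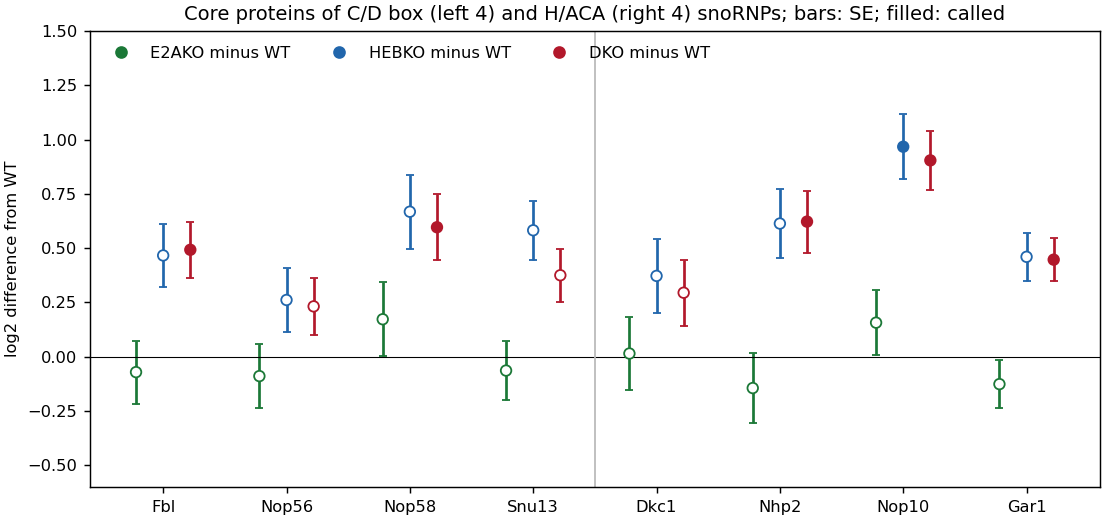
Log2 difference from WT of the 4 C/D and 4 H/ACA core protein genes in E2AKO, HEBKO and DKO, with the standard error of the fit as bars and filled points where the test was passed. Nop10 passed in HEBKO (0.97) and DKO (0.90), and all 8 genes lie above 0 in both.

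Other genes of snoRNA production were read from lists, beside 8.18% of all genes called higher in DKO and 5.41% lower. Of 11 assembly factors tested, 2 rose in DKO, Shq1 (0.72 ± 0.12), a dyskerin chaperone, and Znhit6 (0.64 ± 0.13), a C/D assembly factor, and none fell (list median 0.20). Of 15 genes of processing and turnover none rose and 1 fell, the exonuclease Xrn1 (-0.43 ± 0.12; list median 0.13). Of 23 noncoding hosts 6 were tested, and 3 rose: Gas5, Snhg5 (0.43 ± 0.11) and Snhg17 (0.33 ± 0.10), with a list median of 0.23. Of 42 genes of ribosomal RNA synthesis and ribosome assembly 17 rose and none fell (median 0.33), where 8.18% of all genes were called higher. The largest were Myc (1.25 ± 0.20), a transcription factor, and Polr1b (1.00 ± 0.17) and Polr1a (0.76 ± 0.13), the largest subunits of RNA polymerase I. In HEBKO none of these 4 lists had a call (medians 0.33, 0.08, 0.06 and 0.23), and E2AKO gave none either (medians 0.06, 0.09, 0.10 and 0.06).

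Markers of T cell stage also changed in DKO cells. Over all genes tested, 8.18% were called higher in DKO and 5.41% lower. Of 4 markers of mature single-positive cells tested, all 4 rose in DKO: Il7r by 3.10 ± 0.31, Ccr7 by 2.65 ± 0.19, S1pr1 by 2.61 ± 0.29 and Klf2 by 0.78 ± 0.17. Their mean level per array was 6.72 to 6.76 in WT, 6.69 to 6.99 in E2AKO, 6.57 to 7.46 in HEBKO and 8.74 to 9.18 in DKO. Of 7 DP markers 5 fell in DKO, among them Rag2 (-1.96 ± 0.22), Cd4 (-1.88 ± 0.14) and Rag1 (-1.64 ± 0.16), with array means of 11.69 to 11.74 in WT and 10.63 to 10.92 in DKO. The part of these changes in the snoRNA result was not tested, and fewer cells of a stage and less RNA per cell cannot be told apart in bulk RNA.

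No tested marker of another cell type passed upward in DKO, where 8.18% of all genes were called higher and 5.41% lower. Of B cell markers 2 of 4 on the array were tested and 1 fell (means over all 4 per array, 5.87 to 5.97 in WT and 5.59 to 5.75 in DKO). Of 5 myeloid markers 4 were below the 40th percentile in every array of each group, and Itgam fell (-0.67 ± 0.15). The means over all 5 per array were 5.62 to 5.82 in WT and 5.43 to 5.58 in DKO. Of 6 thymic epithelial markers 4 were tested and 2 fell, Cldn4 (-1.26 ± 0.12) and Epcam (-0.54 ± 0.11; list means 6.42 to 6.64 and 6.10 to 6.17). Of 2 erythroid markers 1 was tested and did not pass (means over both per array, 6.06 to 6.21 in WT and 5.78 to 6.15 in DKO). Cldn4 also fell in HEBKO (-1.01 ± 0.14).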

How the data were processed

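Affymetrix gene arrays were read for 10 samples of sorted thymocytes in 4 groups. The authors made the deposited intensity values by RMA, per the submitters' processing notes. They are on a linear scale, as the values show, and version, build and annotation are not given in the sources used here. They were turned to log2 with no constant added.

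Of 34760 probe sets, 21640 carry 1 symbol in the platform annotation, 1321 several and 11799 none. Each of 19937 genes was read from its probe set with the highest mean. limma 3.58.1 (R 4.3.3) fitted 1 mean per group over all 10 arrays (residual df 6, prior df 5.68), with Benjamini-Hochberg adjustment over 13138 genes. The steps were tested on simulated data. The number of arrays limits the precision.

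Members and lists were chosen with earlier results of these data known. The genes named are members called against WT, the 3 largest rises and falls per class, their hosts, both core protein lists, and the 3 largest calls of the other lists. Snora33, Snora62, Snora70, Snord33 and Snord49a, and the hosts of Snora62 and Snora70, are named beyond that rule, after their values were seen. A host is the smallest gene whose span holds the snoRNA gene. The gene table used has no strand, so strand was not matched as first planned. The alternatives were filters, normalisations, probe set rows, moderation, array weights, samples fitted, a replicate block and each array left out. The labels call the samples biological replicates.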

Additional observations from a re-analysis of the deposited data

Results flagged for a closer look

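Another 22 probe sets carry a snoRNA symbol among several symbols. They were outside the comparisons, and no gene is named from them. Of the 22, 18 reached the 40th percentile in at least 2 arrays. In 4 of these, every DKO array was above every WT array, where 16.7% of all genes tested did so. Their mean log2 differences were 0.93, 1.04, 0.21 and 0.23. The last was below the 40th percentile in all WT arrays and entered only through mutant arrays, so the filter favoured its direction. In 1 every DKO array was below every WT array, against 13.4% of all genes tested, and 13 overlapped. That 1 was below the percentile in all DKO arrays, so the filter favoured its direction as well. The median difference over the 18 was 0.19. The differences of these probe sets were not tested.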

How the results depend on the processing

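Counts here are of calls in either direction. With array weights, 18 snoRNA genes were called in DKO against WT (27.8% of all genes), 6 of them H/ACA, and 9 of the 18 were the original 9. Under array weights the counts were also 2 in HEBKO against WT (3.92% of all genes) and 6 in DKO against E2AKO (13.5%). Fitting only the groups compared gave 5 calls in DKO against E2AKO (9.41% of all genes) and 0 in DKO against HEBKO (2.74%). In DKO against WT this fit gave 10 calls (13.1%), 2 of them H/ACA. Such a fit was not run for the interaction, which needs all groups. With the replicate number as a replicate block, 18 were called in DKO against WT (13 C/D box, 5 H/ACA; 17.7% of all genes), and in HEBKO the call was Snord87 in place of Snord14e. Same-numbered arrays had correlations of -0.29 to 0.48 (10 of 13 over 0.1; median 0.15, against -0.15 for other pairs). These were computed on deviations from group means, which sum to 0 within a group. In groups of 2 the arrays mirror each other, so some pairs repeat a value and other pairs take its opposite. The pairs are therefore not independent, and the 2 medians are no separate contrast. Between WT and DKO, the comparison with 3 pairs, same-numbered arrays had 0.40, 0.01 and 0.13. Among the DKO arrays WT 2 correlated best with DKO 3 (0.24), so the labels' numbers were not taken to pair the mice. This is a hint from the data and not the design. Leaving out each array in turn gave 6 to 11 calls in DKO against WT (5 to 9 C/D box, 1 to 3 H/ACA), 0 to 1 in HEBKO, 0 in E2AKO, 1 to 5 in DKO against E2AKO, 0 to 2 in DKO against HEBKO, and 0 in HEBKO against E2AKO and in the interaction. The medians ranged over 0.26 to 0.48 (C/D box) and 0.17 to 0.35 (H/ACA) in DKO, 0.12 to 0.28 and 0.073 to 0.23 in E2AKO, and 0.03 to 0.17 and -0.026 to 0.27 in HEBKO. As single arrays were left out, the share of all genes called in DKO against WT ran from 7.57% to 14.6%. The causes of these shifts were not tested. No result changed sign in a called value.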
